A study of Schizosaccharomyces pombe with 21 samples.

Results

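Fission yeast (Schizosaccharomyces pombe) cells starved of phosphate for 8 h with cycloheximide were compared with phosphate-replete cells, across all genes, by RNA-seq of polyadenylated RNA. The comparison took 6 of the 21 libraries of the study, 3 of each group, which the labels call biological replicates. The replete cells (0 h) were in log phase in YES, a rich medium with phosphate, and had no drug. The starved cells had spent 8 h in ePMGT without phosphate, with cycloheximide at 100 µg/ml. The labels do not give the time at which the drug was added. All libraries came from 1 strain, AGP72, of genotype h-. Medium, phosphate, time and drug all differ between these groups, so that their effects cannot be told apart in this comparison. Cells starved for 8 h in the same medium without drug, 3 libraries, are the control matched in time and medium. Cells starved with drug for 2 h and for 4 h, 3 libraries each, are the groups most like the one described. The p-values of genes set the difference between groups against the spread between libraries within groups, which the main fit estimated over all 21 libraries.

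Cycloheximide binds the ribosome and blocks the elongation step of translation, so that cells go on making and degrading RNA while new protein is not made. In fission yeast the phosphate genes pho1, pho84 and tgp1 are switched on by the transcription factor Pho7. In rich phosphate they are held down by long noncoding RNAs that are transcribed across their promoters. Iron uptake genes are held down by the GATA factor Fep1 when iron is plentiful, and genes of iron-using proteins by Php4 when it is scarce. RNA polymerase III, which transcribes tRNA genes, is repressed by Maf1, and the title of the series names Maf1 and tRNA.

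Of the 6988 genes in the count table, 6392 had enough counts to be tested, and 1711 of them (26.8%) were called in the comparison with 0 h. Called means at least 2-fold different with an adjusted p under 0.05 (edgeR's quasi-likelihood test, Benjamini-Hochberg). "Higher", "lower", "rose" and "fell" mean this call. The called genes were 808 higher (12.6% of those tested) and 903 lower (14.1%). With libraries scaled by their totals alone, 1100 were higher and 635 lower, the share of higher genes among those called went from 47.2% to 63.4%, and the median log2 fold change of all genes from -0.06 to 0.18. Total counts ran from 22079413 to 31689948 in the 8 h cycloheximide libraries and from 23006377 to 31132468 at 0 h. Among genes of at least 10 CPM (counts per 1000000 of the scaled library), the median coefficient of variation between replicates was 3.46% and 2.93%. Counts at the 36 mitochondrial genes of the table were 0 in all libraries. Of the defining M-cell genes of an h- strain, mam1 had a mean of 56.7 CPM at 0 h and mfm2 of 58.7 CPM. mat1-Mc and mat1-Mi had no counts in either group. The M-cell gene mfm1 was much lower than mfm2 at 0 h, as given below. Values of mfm3, mam2, mat1-Mm and sxa2 at 0 h are not given, so this is not a full check of the mating type. The genes of P cells given here were not at 0, with means of 464.5 CPM for sxa1, 28.6 for map4, 14.7 for map1 and 14.7 for map3 at 0 h. Fewer cells with an RNA and less of it per cell cannot be told apart in such bulk samples.

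**Figure D1:**
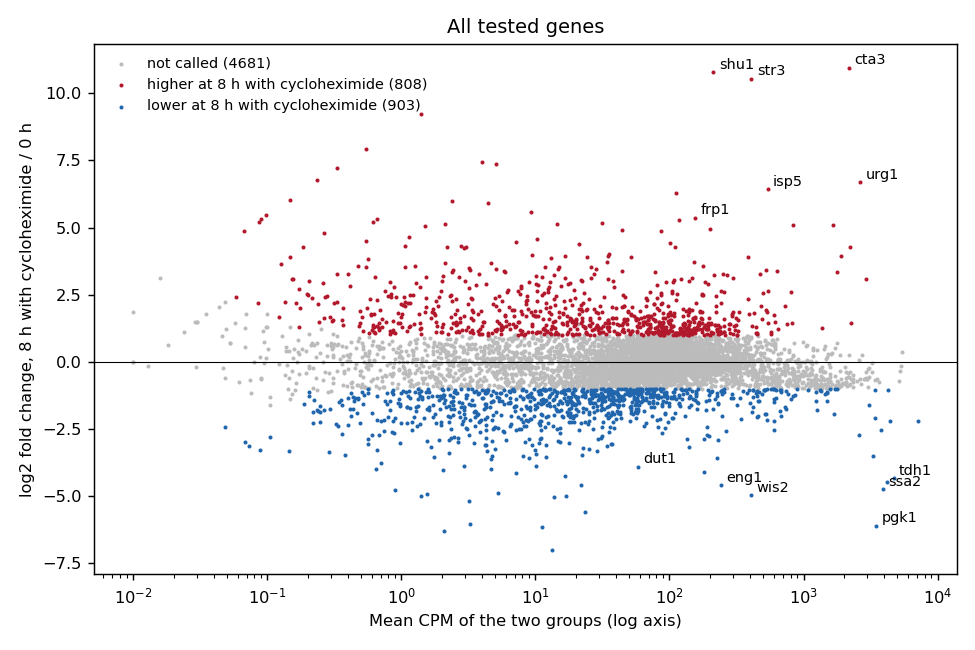
Each point is 1 of the 6392 tested genes, with its mean CPM on the x axis (log scale) and its log2 fold change, 8 h with cycloheximide against 0 h, on the y axis. The 808 genes called higher are red, the 903 called lower are blue and the rest are grey.

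The largest rises included genes of ion, heme and uracil metabolism. Normalised counts of cta3 (SPBC839.06), a P-type ATPase gene for potassium export, were 2.18, 2.22 and 2.21 CPM at 0 h, against 4666, 4244 and 4106 CPM in the 3 libraries of 8 h with drug. At 8 h without drug they were 10.8, 10.4 and 10.2, so the 8 h groups with and without drug are far apart (log2 fold change ± SE of 8.69 ± 0.10, written so for all genes below). The gene had reached 4815, 4962 and 4562 CPM at 2 h with drug, and the 4 h and 8 h groups with drug did not differ beyond the threshold (-0.14 ± 0.07). The amino acid transporter gene isp5 (SPAC1039.09) went from 11.99, 12.95 and 12.4 CPM at 0 h to 1186, 1053 and 966 CPM, 6.43 ± 0.10. dak2, a dihydroxyacetone kinase gene of glycerol use, rose by 5.09 ± 0.13 and atf21, which encodes a transcription factor of the ATF/CREB family, by 5.13 ± 0.24. The DNA damage-responsive gene ddr48 rose by 4.96 ± 0.25, the methyltransferase gene cmt2 by 4.86 ± 0.19 and the wtf element wtf2, of a family of spore killer genes, by 5.14 ± 0.38. The libraries of both groups did not overlap for any of these genes, which the rule that names them asks for.

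The largest falls were in genes of glycolysis, protein folding and cell separation, and in antisense RNAs. The phosphoglycerate kinase gene pgk1 (SPBC14F5.04c) stood at 6586, 7162 and 6873 CPM at 0 h, then at 102, 114 and 83.1 CPM at 8 h with drug. Without drug it stood at 13155, 11037 and 11475 CPM at 8 h, above every 0 h library. wis2, a cyclophilin gene, went from 783, 826 and 769 CPM to 24.1, 26.8 and 24.3 CPM (-4.98 ± 0.10). The cell surface flocculin gene pfl9 fell by 4.89 on the log2 scale. Among antisense RNAs, pep3-antisense-1 went from 21.5, 20.7 and 24.5 CPM to 0.296, 0.293 and 0.329 CPM, a log2 fold change of -6.17 ± 0.19.

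Genes of iron and heme acquisition were higher in 12 of 16 cases, against 12.6% of all tested genes, and their median log2 fold change was 2.24. Both genes of heme uptake led the list. Shu1 is a cell surface protein that takes up heme, and its gene (SPAC1F8.02c) was nearly silent at 0 h, with 0.213, 0.290 and 0.214 CPM. It stood at 20.4, 33.7 and 28.8 CPM at 2 h, then 21.99, 25.6 and 17.9 CPM at 4 h with drug, and at 417, 430.1 and 427 CPM at 8 h with drug. The 3 libraries at 8 h were above all earlier ones with drug, and the rise from 4 h to 8 h with drug was 4.27 ± 0.11 (edgeR, adjusted p = 7e-18). At 8 h without drug the gene stood at 1.83, 1.88 and 1.81 CPM. Of the 16 genes, shu1 was the 1 called higher at 8 h than at 4 h with drug, where 3.0% of all tested genes were, a count that was 2 when 8 h replicate 3 or 4 h replicate 1 was left out or when libraries were scaled by total.

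The heme transporter gene str3 and the ferric reductase gene frp1 took another course. str3 (SPAC1F8.03c) stood at 2294, 2216 and 2163 CPM at 2 h with drug and at 852, 773 and 828 CPM at 8 h, and fell from 2 h to 8 h with drug (-1.44 ± 0.09). frp1 went from 694, 631 and 594 CPM at 2 h to 305, 306 and 300.0 CPM at 8 h with drug (-1.07 ± 0.10), and stood at 6.36, 7.78 and 7.91 CPM at 0 h. Both remained above the 8 h group without drug, by 5.55 ± 0.11 and 3.37 ± 0.12. frp2, a second ferric reductase gene, was at 4.14, 4.30 and 4.03 CPM at 0 h, 3.69, 4.87 and 4.08 CPM at 8 h without drug and 54.7, 48.9 and 39.4 CPM with it. It was called higher in both comparisons (3.52 ± 0.17 against 0 h and 3.49 ± 0.16 against 8 h without drug).

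The reductive iron uptake pair fip1, a permease gene, and fio1, a multicopper oxidase gene, rose against 0 h by 3.13 ± 0.09 and 3.04 ± 0.13. Against 8 h without drug their differences were under 2-fold, at 0.36 ± 0.08 and 0.95 ± 0.11. Siderophores are small iron chelators. Their synthesis genes sib2 and sib1 rose by 2.47 ± 0.07 and 1.30 ± 0.07, and the siderophore transporter genes str1 and str2 by 2.58 ± 0.12 and 1.30 ± 0.04. str2 was at 102, 99.9 and 101 CPM with drug and 101, 90.3 and 93.8 without it at 8 h, and the groups overlap. The mitochondrial iron transporter gene mmt1 was higher than at 0 h (2.02 ± 0.05) and the vacuolar heme exporter gene abc3 too (1.29 ± 0.04). The other 4 genes were not called, with log2 fold changes of -0.55 ± 0.04 for sib3, -0.20 ± 0.03 for pcl1, 0.02 ± 0.03 for abc4 and 0.50 ± 0.05 for mrs3. Against 8 h without drug, 7 of 16 were higher, where 17.1% of all tested genes were. Of 21 genes of iron sensing and iron-using proteins, 3 were higher and 1 lower than at 0 h, shares near or below those over all tested genes (12.6% and 14.1%). The repressor gene php4 went from 49.4, 54.2 and 52.9 CPM to 291, 300.0 and 294 CPM (called higher, edgeR, adjusted p = 5.7e-21), and without drug it was at 66.5, 64.99 and 59.5 CPM at 8 h. isu1, a scaffold gene for iron-sulfur clusters, rose by 1.28 ± 0.05 and the catalase gene ctt1 by 1.32 ± 0.11. With total-count scaling 5 of the 21 were higher.

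**Figure D2:**
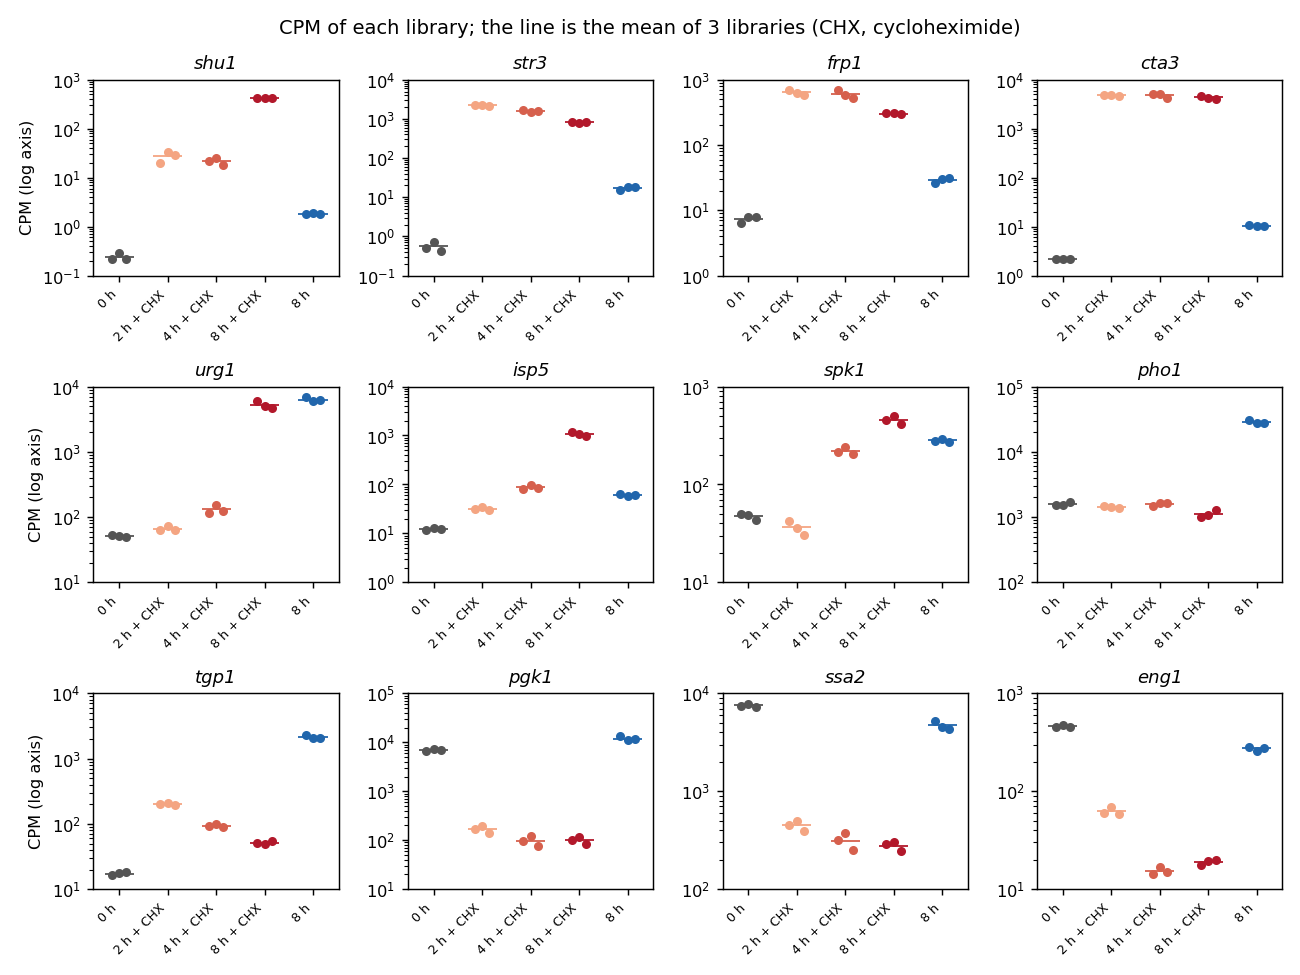
CPM per library on a log axis for 12 genes in 5 groups (0 h, 2, 4 and 8 h with cycloheximide, and 8 h without drug). Points are libraries and lines are group means, and the 3 points of shu1 and of urg1 at 8 h with drug lie above those at 2 and 4 h with drug.

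Of 23 other genes of cation and metal transport, 6 were higher and 1 lower (median 0.39), against 12.6% and 14.1% of all tested genes. Beside cta3, the zinc importer gene zrt1 went from 152, 151 and 152 CPM at 0 h to 885, 913 and 1016 CPM at 8 h with drug (2.63 ± 0.06). It had been higher at 2 h with drug, at 3031, 3153 and 3080.4 CPM (-1.72 ± 0.06 for 8 h against 2 h with drug). zym1, the metallothionein gene, was at 21.1, 22.04 and 21.3 CPM at 0 h, 113, 126 and 98.9 CPM with drug and 1594, 1361 and 1303 CPM at 8 h without drug, so it was higher than at 0 h (2.39 ± 0.16) but lower than in starved cells without drug (-3.65 ± 0.15). The calcium ATPase gene pmc1 rose by 1.65 ± 0.09, the vacuolar zinc exporter gene zip2 by 1.02 ± 0.04 and the phytochelatin transporter gene hmt1 by 1.01 ± 0.05. hmt1 lost its call when 8 h replicate 1 with drug or 0 h replicate 3 was left out. The proton pump gene pma1 was the 1 lower member, at 4529, 4482 and 4777 CPM and 2206, 2177 and 2316 CPM. Its change of -1.04 ± 0.05 was under 2-fold with size factors from DESeq2 or edgeR's RLE method, with total-count scaling and in a fit of the 2 groups alone. The potassium antiporter gene kha1 (0.97 ± 0.03) and the copper transporter gene ctr5 (0.98 ± 0.10) lay just under 2-fold and were called under those same 4 settings.

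The genes of phosphate acquisition split, and the phosphate starvation genes known best were not the ones that rose most. Of 20 tested, 8 were higher and 1 lower than at 0 h (median 0.57), where 12.6% and 14.1% of all tested genes were. The acid phosphatase gene pho1 (SPBP4G3.02) stood at 1536, 1514 and 1723 CPM at 0 h, with 991, 1063 and 1283 CPM in the 8 h libraries with drug, but 30754, 27250.0 and 28076 CPM at 8 h without drug. The drug libraries lie below all 0 h libraries, a difference of less than 2-fold (-0.52 ± 0.08), and far below the starved cells without drug (-4.69 ± 0.09, edgeR, adjusted p = 1e-21). pho84, which encodes a phosphate transporter, was at 939, 917 and 1021 CPM at 0 h and 1199.8, 1357 and 1591 CPM with drug (0.53 ± 0.07, not called), against 5999.6, 5493 and 5697 CPM at 8 h without drug. The glycerophosphodiester transporter gene tgp1 (SPBC1271.09) rose from 16.4, 17.7 and 18.04 CPM to 51.03, 48.6 and 55.4 CPM (1.57 ± 0.07). Without drug it was at 2296, 2057 and 2102 CPM, and with drug it had been higher at 2 h, at 200.3, 212 and 194 CPM.

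Noncoding RNAs of the phosphate loci were measured too. prt2, which lies upstream of pho84 and is known to repress it, was at 26.5, 25.3 and 26.7 CPM at 0 h, with 132, 140.4 and 133 CPM in the 8 h libraries with drug, but 11.9, 16.2 and 15.8 CPM at 8 h without. SPNCRNA.1343, known as the RNA transcribed across the tgp1 promoter, was at 46.8, 51.5 and 45.95 CPM, 171, 173 and 165 CPM and 6.98, 6.85 and 5.77 CPM in the same order. Both were higher with drug than in either other group, without overlap. Against 0 h, SPNCRNA.1343 was called higher with drug (1.82 ± 0.06) and lower without it (-2.87 ± 0.08), comparisons that share the 0 h libraries. Without drug 19.0% of all tested genes were higher and 15.6% lower than at 0 h. nc-pho1, a noncoding transcript of the pho1 locus, was at 3.97, 3.92 and 3.03 CPM at 0 h, 14.5, 10.96 and 11.50 CPM with drug and 2.91, 3.48 and 3.81 CPM without drug at 8 h, with differences of 1.76 ± 0.14 and 1.85 ± 0.14. Since no strand setting is given for the counting, reads of overlapping transcripts may not be separated.

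Regulators of the phosphate response were among the genes that rose. pho7 was at 89.1, 91.4 and 83.5 CPM at 0 h and 263, 264 and 261 CPM with drug (1.58 ± 0.04), and at 101, 96.4 and 96.7 CPM without drug, close to 0 h. pqr1, the gene of an SPX domain ubiquitin ligase, rose by 1.81 ± 0.05 and kcs1, the gene of an inositol polyphosphate kinase, by 1.02 ± 0.04. The transporter gene pho842 (SPAC23D3.12) went from 224, 236 and 223 CPM to 1301, 1357 and 1457 CPM (2.59 ± 0.06). pho4, a phosphatase gene repressed by thiamine, was the lower member (-1.30 ± 0.04). The inositol pyrophosphate kinase gene asp1 (0.61 ± 0.05), the polyphosphate synthesis genes vtc2 (0.94 ± 0.04) and vtc4 (0.41 ± 0.04), the kinase gene csk1 (-0.76 ± 0.06) and the glycerophosphodiesterase gene gde1 (0.17 ± 0.05) were not called against 0 h. vtc2 was called with total-count scaling. Against 8 h without drug, 7 of the 20 were higher and 6 lower, where 17.1% and 20.8% of all tested genes were.

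**Figure D3:**
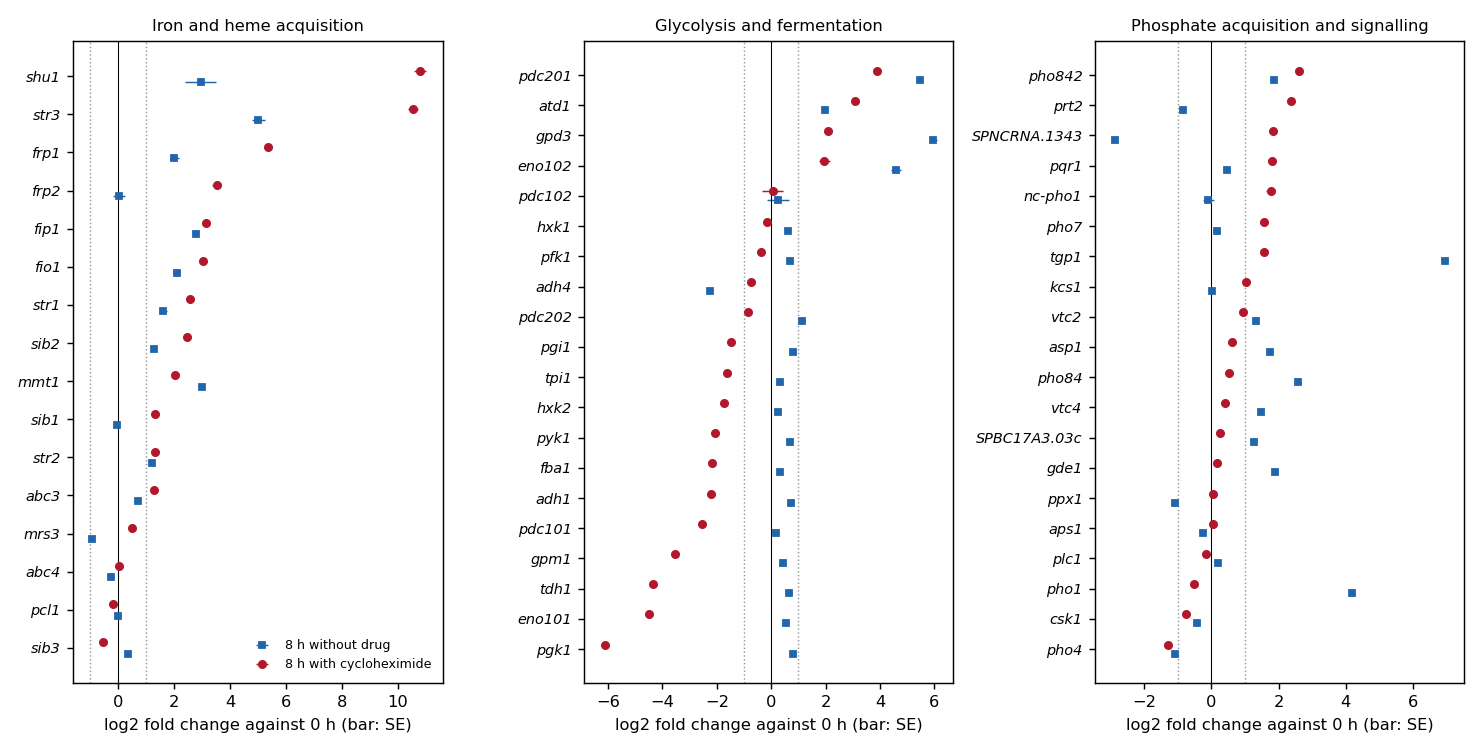
Log2 fold change against 0 h, with its SE as bars, of each tested gene of iron and heme acquisition, glycolysis and fermentation, and phosphate acquisition, at 8 h with cycloheximide (red circles) and at 8 h without drug (blue squares). Dotted lines mark 2-fold. Both comparisons share the 0 h libraries, and pgk1, eno101 and tdh1 are the lowest of the glycolysis genes with drug and lie above 0 without it.

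A set of uracil and nitrogen genes rose between 4 h and 8 h with drug. urg1, the gene of a GTP cyclohydrolase II induced by uracil, was at 52.4, 51.4 and 49.98 CPM at 0 h, 115, 154 and 124 CPM at 4 h, then 6016, 5014 and 4732 CPM at 8 h with drug (5.33 ± 0.12 for 8 h against 4 h). Without drug it was at 6859.5, 5979.6 and 6142 CPM at 8 h, and the 2 groups at 8 h differed by less than 2-fold (-0.27 ± 0.10). urg2, a uracil phosphoribosyltransferase gene, was below 0 h at 4 h with drug, at 36.1, 50.1 and 42.5 CPM, and at 3694, 3061 and 2900.2 CPM at 8 h (6.23 ± 0.12). urg3 rose from 4 h to 8 h with drug by 3.63 ± 0.08. Among 27 genes of uracil, pyrimidine and purine metabolism, 4 were higher and none lower than at 4 h with drug, where 3.0% and 4.88% of all tested genes were (at an unadjusted p below 0.05, 14 were lower by any fold, and DESeq2 called 0). Against 0 h, 4 were higher and 2 lower, shares near or below those over all tested genes (12.6% and 14.1%). The lower ones were dut1, which encodes the enzyme that removes dUTP, and ade2, of purine synthesis (-1.11 ± 0.06), whose call was lost with total-count scaling. The xanthine dioxygenase gene xan1 was not called against 0 h (-0.80 ± 0.09), and was at 19.1, 19.7 and 17.5 CPM with drug and 1218, 1169 and 1185 CPM without it at 8 h, a called difference (-5.99 ± 0.08).

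The nitrogen genes isp5, isp7 and per1 were higher at 8 h with drug than in each of the other 4 groups described. isp5 was at 80.1, 96.5 and 84.4 CPM at 4 h with drug and at 64.3, 57.1 and 60.8 CPM at 8 h without drug, below its 1068 ± 111 CPM (mean ± SD, n = 3) at 8 h with drug. Its differences were 3.62 ± 0.08 and 4.14 ± 0.08. isp7, which encodes an oxygenase that acts in amino acid uptake control, rose to 984, 833 and 753 CPM, 2.27 ± 0.07 above 4 h with drug and 2.06 ± 0.07 above 8 h without drug. per1, an amino acid transporter gene, rose by 3.09 ± 0.05 against 0 h. Of 23 nitrogen-regulated and amino acid transport genes, 7 were higher and 2 lower than at 0 h. The shares over all tested genes were 12.6% and 14.1%. The 2 lower members were the peptide transporter gene ptr2 (-2.46 ± 0.07) and the GABA transaminase gene uga1 (-1.09 ± 0.10, lost with total-count scaling). The RNA named SPAC1039.08-antisense-1, by its identifier a neighbour of isp5 (SPAC1039.09), rose as well, from 4.05, 3.92 and 4.35 CPM to 72.5, 66.2 and 61.8 CPM (4.02 ± 0.09). Whether reads are shared between them was not tested.

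Of 29 genes of mating and sexual differentiation, 14 were higher than at 0 h and 1 was lower (median 0.96). Among all tested genes these shares were 12.6% and 14.1%. mei2, which encodes the RNA-binding protein that starts meiosis, went from 94.6, 86.4 and 89.7 CPM to 939, 984 and 957 CPM (3.41 ± 0.08) and was at 490.1, 557 and 542 CPM at 8 h without drug. spk1, the MAP kinase gene of the pheromone pathway, was at 42.3, 36.3 and 30.7 CPM at 2 h, 214, 244 and 206 CPM at 4 h, then 452, 498 and 414 CPM at 8 h with drug, with no overlap between these groups (3.63 ± 0.10 for 8 h against 2 h). The arrestin-family gene ste7 rose by 2.60 ± 0.07 against 0 h. The pheromone precursor genes differed among themselves. mfm1 was at 1.83, 1.31 and 1.46 CPM at 0 h, then 2.28, 3.08 and 1.83 CPM at 8 h with drug, with no call (0.67 ± 0.26), against 287, 344 and 313 CPM at 8 h without drug. mfm2 was at 65.8, 58.5 and 51.8 CPM at 0 h, 3.26, 4.96 and 3.86 CPM at 2 h, then 198, 206 and 172 CPM at 8 h with drug (1.71 ± 0.22 against 0 h). mfm3 was at 1.01, 0.996 and 1.06 CPM with drug and 55.9, 65.1 and 54.8 CPM without. Against 2 h with drug, 14 of the 29 were higher and 3 lower, where 4.49% and 11.0% of all tested genes were. The spore wall gene isp3, which is not on the list, fell between these times, from 502, 659 and 566 CPM at 2 h to 57.1, 45.6 and 42.00 CPM at 8 h (-3.58 ± 0.10). The receptor gene map3 was the lower member against 0 h (-1.10 ± 0.09), and its call was lost with total-count scaling.

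Of 41 genes of the core environmental stress response, 21 were higher and 3 lower than at 0 h (median 1.06). The shares over all tested genes were 12.6% and 14.1%. Beside atf21 and ddr48, bit2, which encodes a protein of TOR complex signalling, went from 0.981, 0.677 and 0.820 CPM to 19.997, 20.3 and 18.9 CPM (4.56 ± 0.14), and was at 41.4, 44.3 and 42.1 CPM without drug. The lower ones were the DnaJ gene psi1 (-2.13 ± 0.11), the glutaredoxin gene grx1 (-1.75 ± 0.08) and the pyridoxal reductase gene plr1 (-1.57 ± 0.08). Against 8 h without drug, 4 of the 41 were higher and 19 lower (median -0.89), where 17.1% and 20.8% of all tested genes were. Of 28 oxidative stress and drug efflux genes, 8 were higher and 4 lower than at 0 h, where 12.6% and 14.1% of all tested genes were. The share of lower ones was thus near that over all tested genes. The efflux pump genes bfr1 and pmd1 rose by 1.78 ± 0.10 and 1.60 ± 0.04 and were also above 8 h without drug (1.36 ± 0.10 and 1.09 ± 0.04). The sulfiredoxin gene srx1 rose by 2.78 ± 0.14, while the thioredoxin gene trx1 went from 714, 748 and 754 CPM to 185, 185 and 174 CPM (-2.03 ± 0.05).

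In sugar metabolism, genes of glycolysis and fermentation were lower than at 0 h in 11 of 20 cases, against 14.1% of all tested genes. Another 4 were higher, against 12.6% of all tested genes. The lower ones, in order of size, were pgk1, eno101 (-4.48 ± 0.11), tdh1 (-4.34 ± 0.12), gpm1 (-3.52 ± 0.08), pdc101 (-2.56 ± 0.06), fba1 (-2.20 ± 0.07), adh1 (-2.20 ± 0.07), pyk1 (-2.08 ± 0.06), hxk2 (-1.74 ± 0.05), tpi1 (-1.62 ± 0.06) and pgi1 (-1.47 ± 0.06). They cover hexokinase, the steps from glucose-6-phosphate isomerase to pyruvate kinase other than phosphofructokinase, and the enzymes of alcohol formation. The phosphofructokinase gene pfk1 was not called (-0.39 ± 0.06). The pyruvate decarboxylase gene pdc201 (3.90 ± 0.13) and the aldehyde dehydrogenase gene atd1 (3.09 ± 0.07) were higher. Of the other higher ones, the second enolase gene eno102 went from 11.05, 10.97 and 11.3 CPM to 49.00, 44.03 and 36.7 CPM (1.95 ± 0.19), and gpd3, of a second glyceraldehyde-3-phosphate dehydrogenase, from 274, 305 and 249.9 CPM to 1149.6, 1203 and 1172 CPM (2.09 ± 0.10). Their counterparts eno101 and tdh1 ended at 339, 380.4 and 355 CPM and 442, 482 and 408 CPM. Reads of such similar genes may be split between them by the counting, so these 4 values are uncertain.

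Against starved cells without drug, 16 of the 20 were lower and 2 higher, where 20.8% and 17.1% of all tested genes were. tdh1 was at 15852, 13229 and 13117 CPM and gpd3 at 19396, 16386 and 15910.0 CPM at 8 h without drug. From 4 h to 8 h with drug adh1, the alcohol dehydrogenase gene, rose from 405, 435 and 409 CPM to 1648, 1583 and 1542 CPM (1.93 ± 0.06). It was the 1 member called in that comparison, or 1 of 2 when 4 h replicate 2 was left out. Of 25 genes of gluconeogenesis, glycerol and sugar use, 12 were higher and 3 lower than at 0 h. Among all tested genes these shares were 12.6% and 14.1%. The gluconate transporter gene ght3 rose by 3.93 ± 0.12 and the hexose transporter gene ght6, at 0.256, 0.193 and 0.321 CPM at 0 h and 5.58, 5.54 and 4.86 CPM with drug, by 4.32 ± 0.25. The galactokinase gene gal1 fell from 65.02, 64.04 and 66.2 CPM to 8.29, 8.23 and 7.01 CPM, and was lower in each of the 4 comparisons (-3.05 ± 0.07 against 0 h, -3.33 ± 0.07 against 8 h without drug, -1.73 ± 0.08 against 4 h and -2.58 ± 0.08 against 2 h with drug).

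Of 23 heat shock chaperone genes, 13 were lower and 1 higher than at 0 h (median -1.20), where 14.1% and 12.6% of all tested genes were. ssa2, an Hsp70 gene (SPCC1739.13), went from 7472, 7861 and 7251 CPM at 0 h to 289, 300.5 and 247 CPM at 8 h with drug (-4.75 ± 0.12), and was at 5217, 4554 and 4356 CPM without drug. hsp90 went from 4545, 4676 and 4329 CPM to 688, 705 and 668 CPM (-2.72 ± 0.06) and the mitochondrial hsp10 fell by 2.20. hsf1, the gene of the heat shock transcription factor, was the higher member at 1.000 ± 0.04, and its call was lost with a filter at a mean of 100 counts, without 8 h replicate 1 or 0 h replicate 1, and with replicate numbers in the fit. The 8 subunit genes of the chaperonin CCT had a median of -0.37, with log2 fold changes from -0.52 to 0.16 and no call by edgeR or DESeq2, while 7 were below 0 and 1 above at an unadjusted p below 0.05. The 36 proteasome genes were not called either, by edgeR or DESeq2, with log2 fold changes from -0.67 to 0.84 and an unadjusted p below 0.05 for 9 above 0 and 21 below. With total-count scaling edgeR called 1 higher.

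Of 34 autophagy genes, 11 were higher than at 0 h and 1 was lower (median 0.84), and 18 were higher with total-count scaling. In the main fit 12.6% of all tested genes were higher and 14.1% lower. The vacuolar protease gene isp6 went from 140.2, 146 and 147 CPM to 961, 876 and 741 CPM (2.57 ± 0.09) and was at 952, 885 and 849 CPM at 8 h without drug. atg4, whose protease processes Atg8, rose by 2.04 ± 0.06 and atg1801 by 1.62 ± 0.05. atg1803, a paralogue of atg1801, was at 25.8, 24.4 and 27.98 CPM, and at 11.8, 10.6 and 9.42 CPM with drug (-1.31 ± 0.07), against 58.5, 58.4 and 59.3 CPM without drug. Of 30 genes of TOR complexes and effectors, 4 were higher and 1 lower, shares near or below those over all tested genes (12.6% and 14.1%), and 2 were higher without 8 h replicate 1. cek1 rose by 1.13 ± 0.04, and npr3, a subunit gene of the GATOR1 complex that restrains TOR complex 1, was the lower member (-1.32 ± 0.05). The kinase gene gad8 was at 1.01 ± 0.03, a call lost without 8 h replicate 1 or 0 h replicate 2.

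Genes of cell division and DNA replication were more often lower than higher. So were all tested genes together, with 14.1% lower and 12.6% higher. Of 44 genes for mitosis, septum formation and cell separation, 11 were lower and 4 higher. eng1, the glucanase gene that dissolves the septum, was at 454, 476 and 458 CPM at 0 h, 60.6, 68.3 and 58.4 CPM at 2 h, then 17.8, 19.3 and 19.9 CPM at 8 h with drug. adg1 was at 267, 253 and 193 CPM at 2 h with drug and at 19.7, 20.7 and 18.3 CPM at 8 h (-3.60 ± 0.11). The kinesin gene klp6 (1.64 ± 0.04), the glucosidase gene exg1 (1.43 ± 0.04) and the forkhead factor gene fkh2 (1.17 ± 0.03) were higher. Of 31 genes of MBF, the factor of the G1/S transition, and of DNA replication, 11 were lower and 2 higher, with mik1 at -3.15 ± 0.09 and tos4 at -2.88 ± 0.09. tos4 also fell from 4 h to 8 h with drug (-1.15 ± 0.09). spd1, an inhibitor gene of ribonucleotide reductase, was at 1.56 ± 0.04 and res2, of an MBF subunit, at 1.13 ± 0.06. The core histone genes did not move as 1 group: 4 of 10 were lower and 1 higher. hht1, an H3 gene, went from 1006, 1038 and 1033 CPM to 192, 179 and 158 CPM (-2.54 ± 0.06) and hhf1, of H4, fell by 1.88. A further H3 gene, hht2, went from 761, 849.8 and 823 CPM to 1926, 1923 and 1925 CPM (1.25 ± 0.06). The H3 genes encode the same protein, and reads of such similar genes may not be separated by the counting.

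Of 70 amino acid biosynthesis genes, 23 were lower and 1 higher (13 lower with total-count scaling), against 14.1% of all tested genes. The homocysteine synthase gene met17 went from 225, 236 and 249 CPM to 32.2, 33.6 and 31.5 CPM (-2.86 ± 0.06), arg3 fell by 2.103 and leu1 by 1.95. The 1 higher gene was met6, of homoserine O-acetyltransferase, from 393, 408 and 424 CPM to 1124, 1097 and 1054 CPM (1.42 ± 0.04). Of 36 aminoacyl-tRNA ligase genes, 9 were lower (5 with total-count scaling), with the mitochondrial ligase genes mse1 (-2.26 ± 0.06), msk1 (-1.87 ± 0.05) and slm5 (-1.55 ± 0.07) at the bottom. Of 14 genes of vitamin uptake and thiamine, 5 were lower, among them tnr3 of thiamine diphosphate synthesis (-2.11 ± 0.06) and the biotin transporter gene vht1 (-1.83 ± 0.07). Of 62 respiratory chain and ATP synthase genes, 4 were lower, a smaller share than over all tested genes (14.1%). They were 2 with RLE or DESeq2 factors, in a fit of the 2 groups alone or without 8 h replicate 1, and these calls were lost with total-count scaling, where the median went from -0.22 to 0.01. Of 25 sterol synthesis genes, 3 were lower (1 with the other size factors) and 2 higher, both shares below those over all tested genes, the higher ones being erg32 (2.09 ± 0.05) and the squalene monooxygenase gene erg1 (1.07 ± 0.05).

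Few genes of the translation machinery were called against 0 h, and most were higher than in starved cells without drug. Of 138 ribosomal protein genes, 13 were lower and 1 higher than at 0 h, where 14.1% and 12.6% of all tested genes were. The median log2 fold change of the 138 was -0.80. The 13 were 6 with RLE or DESeq2 factors, 4 in a fit of the 2 groups alone, 1 with total-count scaling, 20 without 8 h replicate 3 and 21 without 0 h replicate 1. Against 8 h without drug 137 of 138 were higher (median 2.82), where 17.1% of all tested genes were. At 8 h without drug all 138 were lower than at 0 h (median -3.61), where 15.6% of all tested genes were. rpl1603 was at 211, 214 and 209.7 CPM at 0 h, 413, 423 and 437 CPM with drug and 11.1, 11.7 and 11.8 CPM at 8 h without drug. Its rise against 0 h (1.003 ± 0.04) lay at the threshold, and was lost with a filter at a mean of 100 counts and without 8 h replicate 3 or 0 h replicate 3. rps1401 had the largest fall (-2.56 ± 0.10), from 426, 476 and 450.3 CPM to 71.7, 77.3 and 79.6 CPM. Many ribosomal protein genes have near-identical copies, rpl1603, rps1401 and rpp203 among them, so that the values of single copies are uncertain.

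Ribosome biogenesis genes were called in 7 of 129 cases against 0 h, 3 higher and 4 lower (6 and 1 with total-count scaling). Both shares were below those over all tested genes (12.6% and 14.1%). Against 8 h without drug 102 of the 129 were higher (median 1.60), where 17.1% of all tested genes were. At 8 h without drug 98 of the 129 were lower than at 0 h (0 higher), where 15.6% of all tested genes were. Of 44 translation factor genes, 1 was higher and 2 lower than at 0 h. The kinases that phosphorylate eIF2 alpha went apart: hri1 went from 19.2, 19.7 and 20.03 CPM to 151, 143 and 135 CPM (2.86 ± 0.07) and hri2 from 90.3, 93.2 and 93.97 CPM to 31.8, 36.4 and 35.7 CPM (-1.41 ± 0.05). The second lower gene, tif452 of a cap-binding factor, was at -1.004 ± 0.04 and lost its call under 7 alternatives.

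Of 38 genes of RNA polymerases I and III and their factors, 5 were higher and 2 lower than at 0 h (median 0.00). These shares were near or below those over all tested genes (12.6% and 14.1%). maf1 (SPAC31G5.12c) was at 22.8, 24.7 and 24.1 CPM at 0 h, 98.8, 105 and 97.8 CPM at 2 h, 96.02, 94.3 and 86.2 CPM at 4 h, then 88.1, 78.6 and 74.1 CPM at 8 h with drug. All drug libraries were above all 0 h libraries (1.75 ± 0.06 at 8 h, edgeR, adjusted p = 6.4e-17), and below those of 8 h without drug, at 118, 108 and 108 CPM, by less than 2-fold (-0.47 ± 0.05). brf1, a subunit gene of the polymerase III factor TFIIIB, rose by 1.72 ± 0.05 and tbp1, of the TATA-binding protein, by 1.23 ± 0.04. sfc6, a subunit gene of TFIIIC, fell by 1.84 and the polymerase I factor gene rrn10 by 2.25.

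The libraries hold polyadenylated RNA, so the few counts at tRNA genes measure reads at these genes and not the level of mature tRNA. Over the 171 tRNA genes outside the mitochondrial genome there were 3.14, 2.35 and 3.31 counts per 1000000 of the library at 0 h and 13.04, 12.7 and 11.37 at 8 h with drug. The 3 drug libraries lie above the 3 at 0 h. At 2 h with drug the values were 56.3, 53.4 and 50.7, and at 4 h 35.7, 31.99 and 35.5, so that they were lower at each later time with drug. Without drug they were 10.3, 11.2 and 11.7 at 8 h, which overlaps the drug group. The share of counts at tRNA genes was 4.23 times that at 0 h, with a two-sided exact permutation p of 0.1, the smallest that 3 against 3 libraries allow. Only 38 of the 171 had enough counts to be tested, a filter that a gene can pass through the 2 h or the 4 h drug group alone. Falls from those groups can thus be built in by the filter. Of the 38, 11 were higher and 1 lower than at 0 h (median 1.24), where 12.6% and 14.1% of all tested genes were. Against 4 h with drug 28 were lower and 3 higher, where 4.88% and 3.0% of all tested genes were. The median of that comparison was -2.69, and -1.57 without the filter on low counts. The median against 0 h was 2.61 without 0 h replicate 1 and 5.18 in a fit of the 2 groups alone. The lower call was lost with DESeq2, with total-count scaling, in the fit of the 2 groups and without 8 h replicate 1 or 0 h replicate 3. The 11 became 24 without the filter on low counts, 4 in a fit of the 2 groups alone and 17 without 0 h replicate 1. The 28 became 43 and 15 under the first 2 of these.

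6 of the 11 higher tRNA genes had no count at 0 h, so that only a lower bound of their fold can be given, against a floor of 3 counts over the group. SPBTRNAALA.07 had 95 counts over the 8 h drug group, at least 31.6-fold higher, and was at 0.972, 1.29 and 1.02 CPM, against 0.159, 0.322 and 0.262 CPM at 4 h with drug. Without drug it stood at 3.23, 2.40 and 2.69 CPM at 8 h. SPATRNAVAL.04 had 57 counts, at least 18.9-fold higher. The other 4 were at least 3.66-fold to 5.65-fold higher, from 11 to 17 counts. SPBTRNAALA.07 rose from 4 h to 8 h with drug (2.13 ± 0.33), while other tRNA genes fell over this time. spl1, a proline tRNA gene, was at 3.89, 4.28 and 3.37 CPM at 2 h, then 0.127, 0.117 and 0.438 CPM at 8 h with drug (-4.08 ± 0.28), and fell from 4 h too (-3.16 ± 0.32).

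Noncoding RNA genes held 1.31% of counts at 0 h and 1.82% at 8 h with drug (means of 3 libraries, exact permutation p of 0.1, adjusted 0.1), a ratio of 1.40. Among 1225 tested, 262 were higher and 282 lower, where 12.6% and 14.1% of all tested genes were. Of 611 antisense RNAs, 111 were higher and 173 lower than at 0 h (median -0.18, or 0.06 with total-count scaling), or 73 and 102 with a filter at a mean of 100 counts. In the other comparisons 251 were lower and 99 higher than at 8 h without drug, where 20.8% and 17.1% of all tested genes were. Against 2 h with drug 237 were lower and 21 higher, where 11.0% and 4.49% of all tested genes were. SPCC663.10-antisense-1 went from 9.47, 8.60 and 9.02 CPM at 0 h to 646, 629 and 611 CPM at 2 h, then 188, 196 and 197 CPM at 8 h with drug, and was at 4.42, 4.22 and 5.42 CPM at 8 h without drug (5.38 ± 0.06). vps10-antisense-1 was above 0 h at 2 h with drug, at 64.4, 67.6 and 71.2 CPM against 14.7, 14.8 and 15.6 CPM, and below it at 8 h, at 3.34, 3.87 and 3.03 CPM (-2.13 ± 0.08). cta3-antisense-1, by its name antisense to cta3, went from 29.1, 31.9 and 33.6 CPM to 1.44, 1.82 and 1.68 CPM (-4.24 ± 0.10), with 34.2, 32.9 and 32.9 CPM at 8 h without drug.

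Of 44 tested genes of small nuclear or nucleolar RNAs, 5 were higher and 8 lower than at 0 h by edgeR, where 12.6% and 14.1% of all tested genes were. With a filter at a mean of 100 counts the 5 higher calls were lost and 4 lower ones were left. sno52 went from 27.5, 24.99 and 24.5 CPM to 4.69, 5.04 and 4.13 CPM (-2.47 ± 0.18). Of the 29 rRNA genes tested, 3 were higher and 15 lower than at 0 h, against the same 12.6% and 14.1% of all tested genes. The Tf2 retrotransposons, of which 5 had enough counts, were all lower than at 2 h with drug (median -2.12), where 11.0% of all tested genes were, and 1 was lower than at 0 h. The 5 were 11 without the filter on low counts and 3 with a mean of 100 counts. The median against 0 h, 0.20, was -0.43 with a mean of 100 counts, -0.37 in a fit of the 2 groups alone and -0.12 without 8 h replicate 3. Tf2-2 was at 4.56, 4.98 and 5.06 CPM at 0 h, 12.5, 16.5 and 17.4 CPM at 2 h, then 2.58, 1.96 and 2.37 CPM at 8 h with drug (-1.09 ± 0.16 against 0 h, a call lost with total-count scaling and without 8 h replicate 2). Tf2 copies are near-identical, so single copies are uncertain. Among 42 genes of RNA surveillance and decay, 2 were higher and 2 lower than at 0 h, where 12.6% and 14.1% of all tested genes were. The higher ones were csx1 (1.49 ± 0.05) and zfs1 (1.07 ± 0.06), the lower ones air1 (-1.25 ± 0.05) and lsm1 (-1.05 ± 0.03). The lower ones numbered 1 or 4 under other settings.

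**Figure D4:**
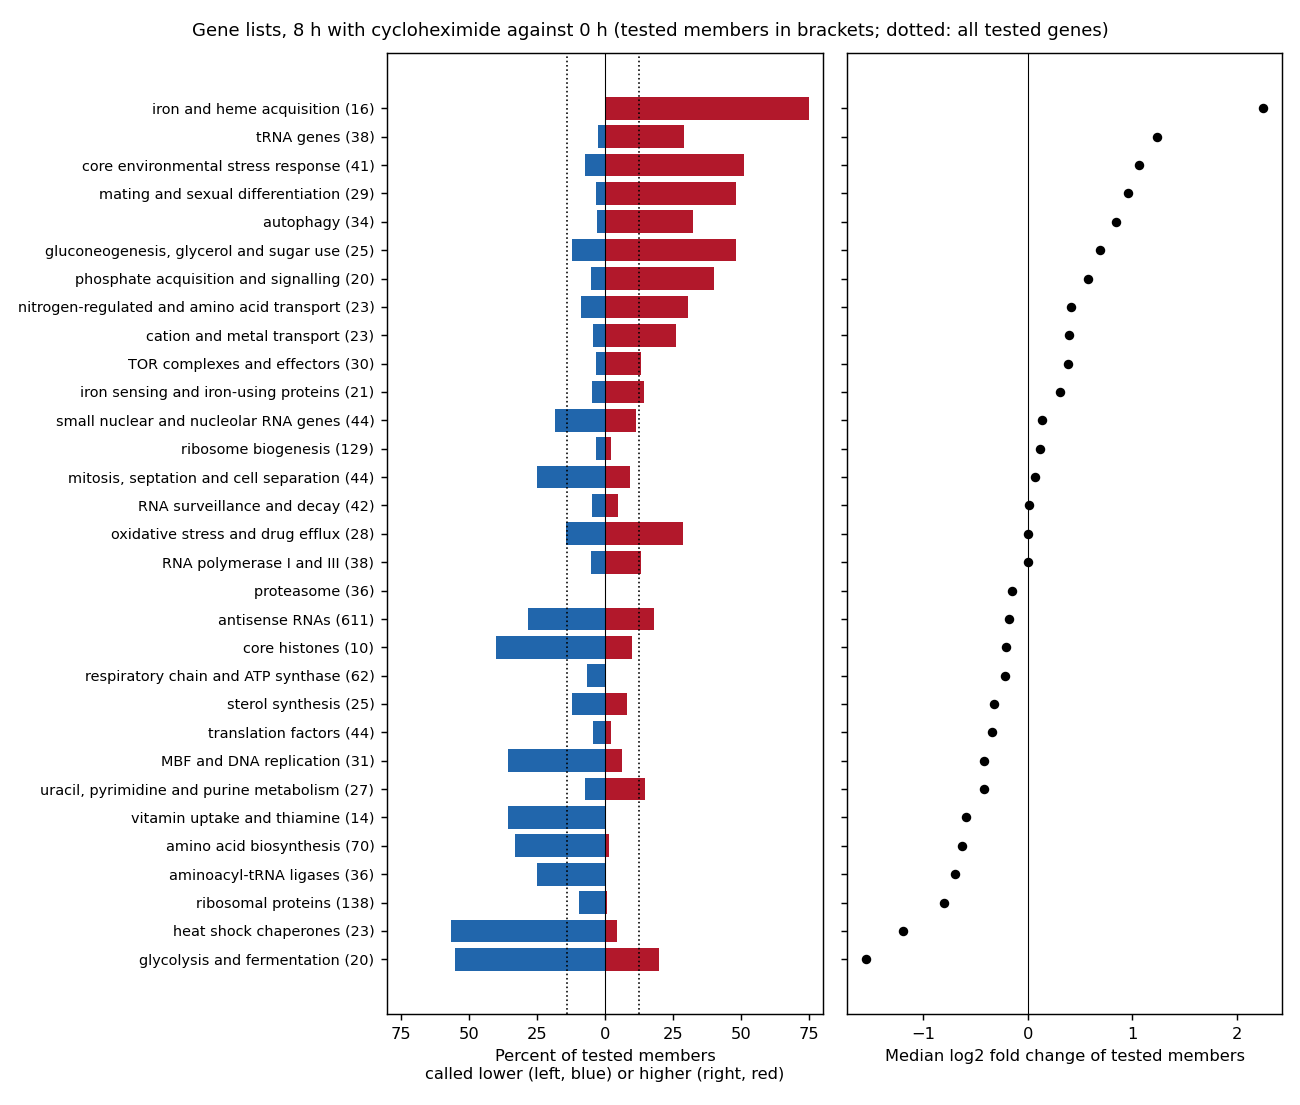
Percent of tested members called lower (left, blue) and higher (right, red) at 8 h with cycloheximide against 0 h, for each gene list with at least 10 tested members, with the list's median log2 fold change beside it. Dotted lines are the shares over all tested genes, 14.1% lower and 12.6% higher, and the iron and heme list reaches furthest to the right (12 of 16).

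The lists order the 4 comparisons in different ways. Iron and heme genes had medians of 2.24 against 0 h, 0.96 against 8 h without drug and -0.14 against 4 h with drug, and glycolysis genes of -1.54, -2.41 and 0.03. Ribosomal protein genes had -0.80, 2.82 and -0.21. Between 4 h and 8 h with drug 192 genes were higher (3.0%) and 312 lower (4.88%), or 266 and 248 with total-count scaling. The genes higher than at 8 h without drug were 1093 (17.1%) and those lower 1331 (20.8%).

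**Figure D5:**
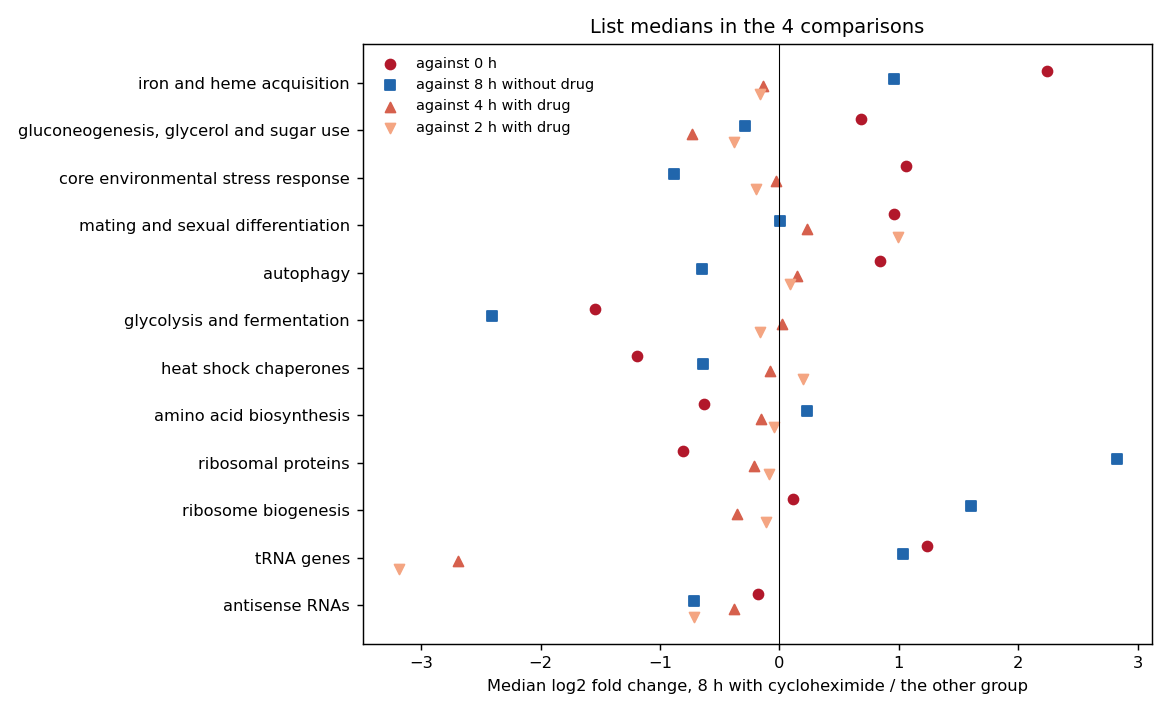
Median log2 fold change of 12 gene lists in 4 comparisons of the 8 h cycloheximide group, against 0 h, 8 h without drug, and 4 h and 2 h with drug. Each point is the median over the tested members of a list, and ribosomal protein genes lie at 2.82 against 8 h without drug and at -0.80 against 0 h.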

How the data were processed

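Gene counts of 21 libraries of polyadenylated RNA (hot phenol extraction, stranded TruSeq libraries, paired-end reads, per the labels' protocols) were used as the authors deposited them. Tools named in the submitters' processing notes are HTSeq 0.10.0, HISAT2 2.1.0, DESeq2, DESeq and SAMtools, with the build ASM294v2. Their roles, and the strand setting, are not stated there. The authors' deposited table of 8 h with cycloheximide against 0 h gave symbols and products. Its base mean and group averages (normalised signal), log2 fold changes, their standard error and Wald score, and p-values and adjusted p-values were the authors' own, per the file headers, and were read only to set that table's calls beside those made here: it holds 862 higher and 834 lower genes at the same thresholds, of which 804 and 829 were also called here.

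From the counts, edgeR 4.0.16 (R 4.3.3, limma 3.58.1) was run with TMM scaling, filterByExpr and the quasi-likelihood test over all 21 libraries with the group as the term, and p-values were adjusted by Benjamini and Hochberg over the 6392 genes tested. A gene was called at an adjusted p below 0.05 and at least 2-fold. The SE is the log2 fold change divided by the square root of F, and CPM uses the scaled library size. Shares of counts by RNA class were compared by a two-sided exact permutation test. In data simulated for the comparison with 0 h (6392 genes), all 50 genes changed 2.5-fold were called, none of 50 changed 1.5-fold were (47 had an adjusted p below 0.05), and of 6192 unchanged genes 10 had an adjusted p below 0.05. The simulation drew all libraries from the 0 h means and changed few genes, none of low counts, in random directions. It therefore does not show how calls fare with the many changes of the real data, with the choice of scaling or at low counts.

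Gene lists and members were chosen with earlier results of these data known. Genes are named by a rule: the 12 highest and 12 lowest called genes with a symbol, at least 100 scaled counts and no overlap between groups, the 6 highest and 6 lowest of each other comparison, up to 3 called members per list and direction, all members of 4 lists (iron and heme, phosphate, glycolysis, cation and metal), and maf1, pho1, pho84, tgp1, pho7, csk1 and SPNCRNA.1343. Genes of lists that a count of at most 5 singles out were added after their values were seen. Alternatives were RLE factors, total-count scaling, no filter or a mean of 100 counts, the 2 groups alone, replicate numbers in the fit, DESeq2 1.42.0, no fold threshold, each library left out, and class shares without the 10 genes of most counts. Names of 6836 genes were matched to RefSeq's ASM294v3, whose coordinates were not used because the build differs. 1 gene that the rule names is not reported here.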

Additional observations from a re-analysis of the deposited data

Results flagged for a closer look

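Only the 220 genes that the naming rule picks were searched here, and no such count was made over all tested genes. For 11 of the 220 the 8 h groups with and without cycloheximide lay on opposite sides of 0 h, both called. Each of these pairs shares the 0 h libraries, and the difference itself was tested as 8 h with against 8 h without drug (edgeR's quasi-likelihood test), with no overlap between the libraries of these groups. 3 genes were higher with drug and lower without it. SPNCRNA.1343 differed by 4.69 on the log2 scale (1.82 with and -2.87 without drug, each against 0 h), the ribosomal protein gene rpl1603 by 5.202 (1.00 and -4.20) and fyv7 by 2.088 (1.04 and -1.05). The other 8 were lower with drug and higher without it. The antisense RNA lid2-antisense-1 differed by -5.853 (-3.26 and 2.60) and SPBC106.12c-antisense-1 by -5.534 (-3.52 and 2.01). meu3, named for its rise in meiosis, differed by -5.091 (-1.14 and 3.95) and the small nuclear RNA gene snu1 by -4.57 (-2.23 and 2.34). The pyridoxal reductase gene plr1 differed by -3.101 (-1.57 and 1.53), the glutaredoxin gene grx1 by -3.038 (-1.75 and 1.29), the GABA transaminase gene uga1 by -2.928 (-1.09 and 1.83) and atg1803 of autophagy by -2.476 (-1.31 and 1.17). The falls of meu3 and uga1 and the rise of rpl1603 against 0 h were not called under every setting, as given for uga1 and rpl1603 above and, for meu3, with total-count scaling.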

How the results depend on the processing

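No called gene among those named changed direction under an alternative, and of the 174 called against 0 h, 149 were called under every alternative that gave a value and 25 were lost under at least 1. Of 140 medians (of lists and of all genes, in 4 comparisons), 31 changed sign under at least 1 alternative. 1 of these was at least 0.5 in size, that of tRNA genes against 8 h without drug, which went from 1.03 to -0.40 in a fit of the 2 groups alone. Without the 2-fold threshold the higher and lower genes were 2488 and 2896 against 0 h, 2763 and 2936 against 8 h without drug, 1922 and 2376 against 4 h with drug and 2468 and 2371 against 2 h with drug. With a mean of at least 100 counts, 116 were higher and 171 lower than at 4 h with drug, and 456 lower than at 2 h with drug. Leaving out 1 library at a time gave 785 to 820 higher and 881 to 918 lower against 0 h, 1086 to 1105 and 1330 to 1353 against 8 h without drug, 182 to 210 and 296 to 314 against 4 h, and 286 to 296 and 685 to 727 against 2 h with drug. Without the 10 genes of most counts, protein-coding genes held 98.09% of counts at 8 h with drug (98.13% with them), noncoding RNA 1.857% (1.824%) and rRNA genes 0.002549% (0.002503%). With the replicate number as a block 807 genes were higher and 901 lower than at 0 h. The numbers did not pair the libraries of 0 h and 8 h with drug, whose same-numbered deviations correlated at 0.0268 to 0.0566. Between 4 h and 8 h with drug such deviations correlated at 0.267, 0.130 and 0.380, and different-numbered ones at -0.336 to 0.160. That comparison was tested unpaired, and with the block it had 195 genes higher and 312 lower. Over all pairs of groups, 25 of 63 same-numbered correlations were above 0.1. A search of promoters for motifs was not run, as promoter sequences of the files' build were not used here. Counts of called tRNA, small RNA and antisense genes, which have few reads, changed with the filter on low counts, and those of ribosomal protein genes with the scaling, as given above.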
